A study of Homo sapiens with 6 samples.

Results

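A set of 31 genes for cholesterol synthesis, its control, and the movement and storage of cholesterol was examined in Hep3B cells, an established human hepatocellular carcinoma line. The genes were taken by symbol from the 23228 genes of the tables. All 31 had a row, and all 31 were among the 14537 genes with reads enough to be tested. SC5DL is the older symbol of SC5D. RNA-seq was done on 3 control libraries, from cells given a lentiviral shRNA without a target, and on 3 libraries labelled PELP1-KD, from cells given a lentiviral shRNA against PELP1. Both groups were Hep3B grown in RPMI medium, and the PELP1-KD cells were pooled after puromycin selection. The PELP1-KD titles name the first PELP1 shRNA, while their protocol names a pair of shRNAs, so which hairpin these libraries carry is uncertain. Nothing in the labels says that replicates came from separate cultures, so p-values measure only the spread between these libraries, which may be technical.

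Cells make cholesterol from acetyl-CoA. The mevalonate pathway builds isoprenoid units, squalene synthase joins farnesyl diphosphate into squalene, and a series of enzymes turns squalene into lanosterol and then cholesterol. When sterol in the endoplasmic reticulum (ER) is low, SCAP carries the transcription factors SREBP1 and SREBP2 to the Golgi, where proteases release their active parts. When sterol is high, INSIG proteins hold SCAP back. Liver cells are a major site of this synthesis and also take cholesterol up from lipoproteins, store it as esters and pass it into bile.

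Reads on genes numbered 26758363 to 34456542 per library. Values below are normalized reads, which are reads divided by each library's TMM-scaled size relative to the geometric mean of the 6, so they compare one gene between libraries. PELP1 itself had 4893, 4914 and 5102 normalized reads in the controls and 4421, 4825 and 4840 in those labelled PELP1-KD. The groups did not overlap, but the log2 fold change was −0.082 (SE 0.041, 95% interval −0.17 to 0.004, adjusted p = 0.101 from edgeR), at 94.5% of control. Blocked by replicate number, its adjusted p was 0.0106, and without PELP1-KD replicate 3 it was 0.018. Directions below are therefore those of the labels. The paper reports lower PELP1 protein in Hep3B PELP1-KD cells by Western blot, a measure of protein that RNA reads do not give. The liver cell identity of the line was seen in the hepatocyte markers, whose summed level was 9292 to 9374 RPKM (reads scaled to exon length and library size) in the controls and 6495 to 6569 in those labelled PELP1-KD, with 7 of 8 markers lower and 1 higher. Of the hepatoma and fetal liver markers, AFP was higher (log2 fold change 0.62) and GPC3 lower (−0.24). Of markers of other cell types, those of blood cells summed to 89.0 to 94.8 RPKM in the controls and 31.5 to 33.0 in the other group, nearly all from LYZ. CD14 was lower too, at 176 and 89.0 normalized reads (log2 fold change −0.98, adjusted p = 3.31e-06). The blood marker HBB was at 0 reads in all libraries, while CD3E and PTPRC were at or near 0. Fibroblast markers summed to 10.3 to 11.5 and 17.5 to 18.0 RPKM. COL1A1 (log2 fold change 1.44), LUM (0.92) and COL1A2 (0.51) were higher, PDGFRA was lower (−0.96), and DCN was near 0. Endothelial markers summed to 0.450 to 0.510 and 0.434 to 0.479 RPKM, with CDH5 and KDR at 0. The part of these shifts in the results below was not tested. In bulk RNA, fewer cells of a type and less RNA per cell cannot be told apart.

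Of the 31 genes, 14 (45.2%) rose and 7 (22.6%) fell at an adjusted p below 0.05. Over all 14537 genes tested, 26.8% rose and 26.8% fell. Without PELP1-KD replicate 2, 8 of the 31 (25.8%) rose and 6 (19.4%) fell, against 23.0% and 23.3% of all genes tested in that fit. Among the 10172 genes whose mean reached 263 normalized reads, as in the lowest of the 31, 29.4% rose and 28.3% fell, a comparison chosen after the data had been seen. The median log2 fold change of the 31 genes was 0.077, from −0.97 for TM7SF2 to 1.32 for SOAT2, and that of all genes tested was 0.004. Only SOAT2 rose at least 2-fold, and no gene of the set fell as far, where 2.85% and 4.79% of all genes did so. The values of the groups did not overlap for 19 of the 31 genes (61.3%), near the 58.8% of all genes. These genes were measured more precisely than most, with a median standard error of 0.0436 on the log2 scale against 0.0632 over all genes. Of the 21 genes that changed, 12 kept their call in all alternatives, 7 of them higher and 5 lower. The share of all called genes that did so is not given here.

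**Figure D1:**
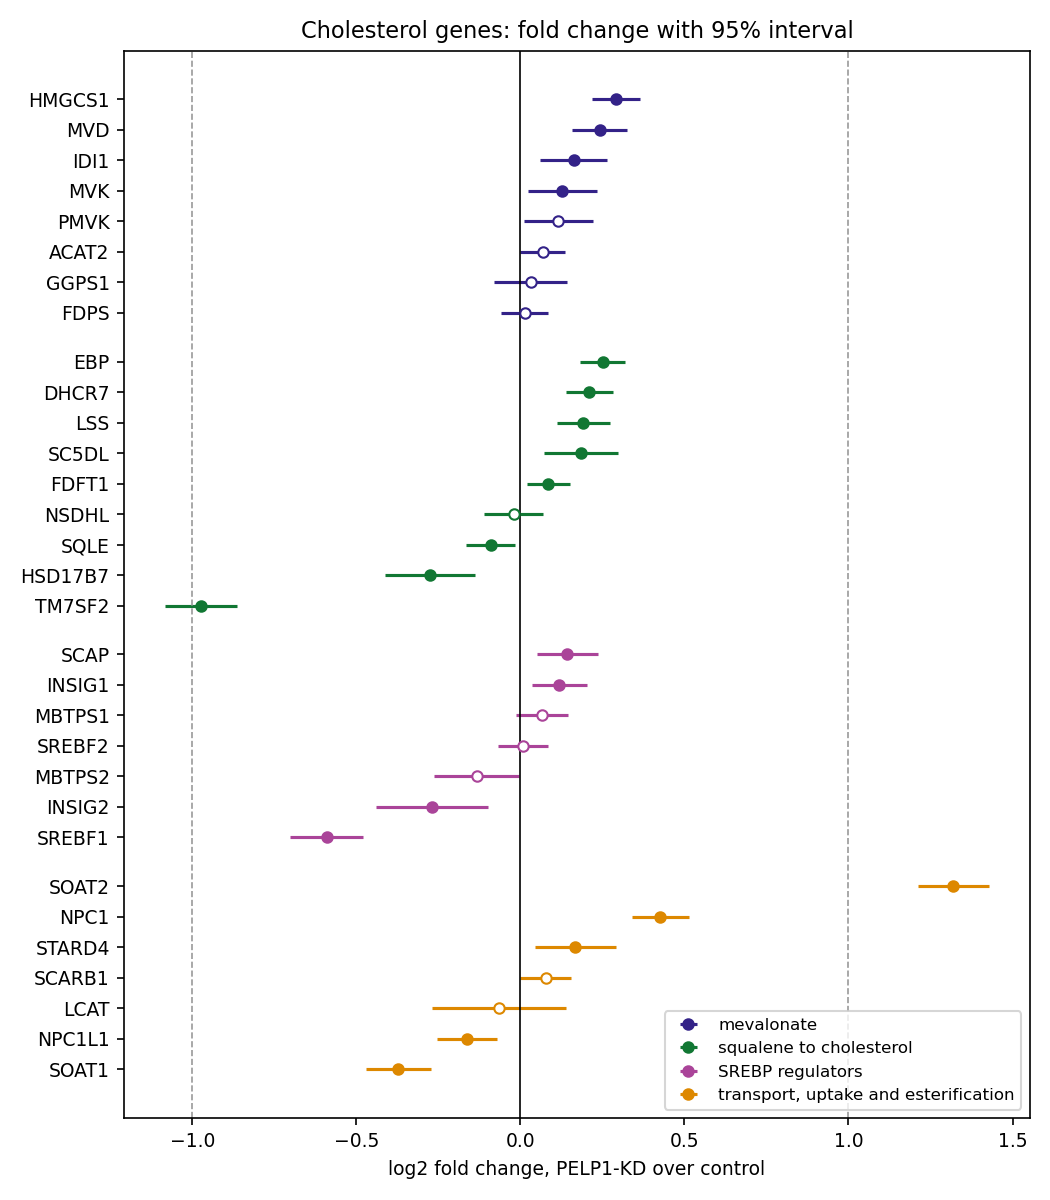
Log2 fold change of PELP1-KD over control for each of the 31 genes (points) with its 95% interval (bars), in 4 groups by role. Filled points have an adjusted p below 0.05, and dashed lines mark a 2-fold change, which SOAT2 alone exceeds, at 1.32, while TM7SF2 lies at −0.97.

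The genes differed widely in level. Per exon length, HMGCS1 was the most abundant in the controls at 542 RPKM, which ranked it 108 of the genes tested. It was followed by EBP at 366, DHCR7 at 191 and FDPS at 176 RPKM. SREBF2, the gene of SREBP2, stood at 91.5 RPKM and SREBF1 at 24.4. The lowest were INSIG2 at 8.18, MBTPS2 at 6.78 and LCAT at 6.31 RPKM. Neighbours in this order were separated in the 3 controls except where their ranges met. These were SQLE with LSS, INSIG1 with MBTPS1, NPC1L1, STARD4, GGPS1 and NPC1 in a row, HSD17B7 with SC5DL, and INSIG2, MBTPS2 and LCAT in a row.

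Of the 8 genes of the mevalonate arm, 4 rose, where 26.8% of all genes did, none fell, and the median log2 fold change was 0.12. HMGCS1, the synthase that makes HMG-CoA and lies on chromosome 5 of hg19 from 43289493 to 43313595, changed most. It had 60992, 60877 and 57468 normalized reads in the controls and 76243, 74099 and 68980 in those labelled PELP1-KD. Every control lay below every PELP1-KD library, with means of 59779 ± 2000 and 73107 ± 3730 (SD, n = 3 each). The log2 fold change was 0.29 (SE 0.035, adjusted p = 7.7e-07 from edgeR). MVD, the decarboxylase that yields isopentenyl diphosphate (chromosome 16, 88718348 to 88729495), had 6724, 6752 and 7232 normalized reads in the controls and 7967, 7939 and 8576 in the other group. These groups were also apart, with a log2 fold change of 0.24 (SE 0.040, adjusted p = 3.82e-05).

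IDI1, the isomerase of the isoprenoid unit, had 7739, 7867 and 6896 normalized reads in the controls and 8773, 8583 and 7821 in those labelled PELP1-KD. The third library of each group was its lowest, and because of it the groups overlapped. The log2 fold change was 0.16 (SE 0.049, adjusted p = 0.00977), and the call was lost without control replicate 3 (adjusted p = 0.0601), without PELP1-KD replicate 1 (0.0626) or without PELP1-KD replicate 2 (0.0506). MVK, mevalonate kinase, had 2552, 2445 and 2724 normalized reads in the controls and 2664, 2756 and 3008 in the others, again with overlap. Its log2 fold change of 0.13 (SE 0.050, adjusted p = 0.0397) was lost in DESeq2 (adjusted p = 0.0718). It was also lost without control replicate 1 (0.102) or 2 (0.2) and without PELP1-KD replicate 2 (0.0659) or 3 (0.149).

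The other genes of this arm did not pass the test. PMVK, phosphomevalonate kinase, had a log2 fold change of 0.12 (95% interval 0.011 to 0.22, adjusted p = 0.0577). ACAT2, here the cytosolic thiolase that condenses acetyl-CoA and not the sterol acyltransferase that shares this abbreviation, had 8150, 8054 and 8147 normalized reads against 8528, 8434 and 8558. Its groups were apart by a narrow margin, with a log2 fold change of 0.068 (adjusted p = 0.0845). With the replicate number as a block both were called higher, at an adjusted p of 0.0172 for PMVK and 0.0103 for ACAT2. With library size as the only scaling they were too (0.03 and 0.0273), and PMVK also without PELP1-KD replicate 1 (0.0212). FDPS, which makes farnesyl diphosphate, had a log2 fold change of 0.013 (95% interval −0.058 to 0.085, adjusted p = 0.764). GGPS1, which extends it to geranylgeranyl diphosphate for protein prenylation, had 0.031 (95% interval −0.079 to 0.14, adjusted p = 0.639).

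From squalene to cholesterol the genes went both ways. Of 9 genes, 5 rose (55.6%), 3 fell (33.3%) and 1 did not pass the test, where 26.8% of all genes rose and 26.8% fell. The median log2 fold change was 0.085. EBP, the sterol isomerase that lies on chromosome X from 48380164 to 48387104, had 13157, 13341 and 13418 normalized reads in the controls and 15264, 15881 and 16352 in those labelled PELP1-KD. The groups lay well apart, with a log2 fold change of 0.25 (SE 0.033, adjusted p = 2.2e-06). DHCR7, the reductase that forms cholesterol from its dehydro precursor (chromosome 11, 71145457 to 71159477), had 16146, 15601 and 16259 normalized reads against 17798, 18345 and 19384. Each PELP1-KD library exceeded each control, for a log2 fold change of 0.21 (SE 0.034, adjusted p = 3.58e-05). LSS, which closes the sterol rings to lanosterol (chromosome 21, 47608360 to 47648738), had 9239, 9353 and 10110 normalized reads against 10670, 10714 and 11401. Its groups did not overlap either, and the log2 fold change was 0.19 (SE 0.039, adjusted p = 0.000341).

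A smaller rise was found for SC5DL and FDFT1. SC5DL, the sterol desaturase, had 2629, 2711 and 2338 normalized reads in the controls and 3014, 3014 and 2701 in the other group. As for IDI1, the third library was the lowest in each group and the groups overlapped. The log2 fold change was 0.18 (SE 0.054, adjusted p = 0.00758), lost without control replicate 3 (adjusted p = 0.0571) or PELP1-KD replicate 2 (0.0523). FDFT1, squalene synthase, had 9354, 9424 and 9474 normalized reads against 9949, 9923 and 10097, apart but close. Its log2 fold change was 0.085 (SE 0.032, adjusted p = 0.0291), and the call was lost without control replicate 1 (0.107), control replicate 2 (0.0837) or PELP1-KD replicate 2 (0.0733).

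TM7SF2 showed the largest fall of the 31 genes. It encodes a reductase that acts on the sterol ring soon after lanosterol, and lies on chromosome 11 from 64879341 to 64883707. It had 2537, 2552 and 2721 normalized reads in the controls and 1236, 1310 and 1431 in those labelled PELP1-KD. The level was 50.9% of control, with a log2 fold change of −0.97 (SE 0.052, 95% interval −1.08 to −0.86, adjusted p = 5.8e-12). Without PELP1-KD replicate 3 it passed the 2-fold mark, at −1.03. LBR, the lamin B receptor, is an inner nuclear membrane protein with the same reductase activity. It was on the list of electron carriers and scaffold genes rather than among the 31, and it fell too, from 6291 to 3862 normalized reads on average (log2 fold change −0.70, SE 0.051, adjusted p = 6.64e-10).

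HSD17B7, a ketoreductase of the demethylation steps (chromosome 1, 162760496 to 162782608), had 568, 559 and 557 normalized reads in the controls and 454, 473 and 465 in those labelled PELP1-KD. It fell to 82.6% of control with no overlap (log2 fold change −0.28, SE 0.065, adjusted p = 0.00142). SQLE, squalene epoxidase, an oxygen-dependent control point of the pathway, had 6444, 6501 and 6194 normalized reads against 6030, 6089 and 5847. Its fall was small, with a log2 fold change of −0.091 (SE 0.036, adjusted p = 0.039). It was lost with library size as the only scaling (adjusted p = 0.0877), without a filter on low counts (0.054), without control replicate 1 (0.141) or 2 (0.16), and without PELP1-KD replicate 2 (0.0686) or 3 (0.0648). NSDHL, a dehydrogenase of the same demethylation steps as HSD17B7, had a log2 fold change of −0.020 (95% interval −0.11 to 0.069, adjusted p = 0.71).

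Promoter sequences from RefSeq (GRCh38.p14) are given for the synthesis enzymes with the largest changes in each direction, since genes of one pathway moved both ways, and for SREBF2. Each run is the 200 bases before the transcription start, 5′ to 3′ on the gene's strand. Capitals mark CCAAT (the letters bound by NF-Y), GGGCGG (by Sp1) and CACCCCAC (the core of a classical sterol regulatory element), each read on both strands. HMGCS1, EBP and MVD rose, TM7SF2 and HSD17B7 fell, and SREBF2 did not pass the test. SREBF2 is shown because it was the only gene of the set with CACCCCAC in a window. HMGCS1 has 2 annotated starts, of which 1 is shown.
HMGCS1, chr5:43313413-43313612, minus strand: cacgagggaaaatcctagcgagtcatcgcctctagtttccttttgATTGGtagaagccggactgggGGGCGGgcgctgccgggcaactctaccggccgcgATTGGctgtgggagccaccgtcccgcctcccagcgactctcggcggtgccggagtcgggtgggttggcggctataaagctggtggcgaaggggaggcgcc
EBP, chrX:48521608-48521807, plus strand: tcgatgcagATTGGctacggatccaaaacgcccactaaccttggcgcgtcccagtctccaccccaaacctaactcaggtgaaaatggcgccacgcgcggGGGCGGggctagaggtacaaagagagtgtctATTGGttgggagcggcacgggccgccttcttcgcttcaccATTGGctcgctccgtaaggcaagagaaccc
MVD, chr16:88663092-88663291, minus strand: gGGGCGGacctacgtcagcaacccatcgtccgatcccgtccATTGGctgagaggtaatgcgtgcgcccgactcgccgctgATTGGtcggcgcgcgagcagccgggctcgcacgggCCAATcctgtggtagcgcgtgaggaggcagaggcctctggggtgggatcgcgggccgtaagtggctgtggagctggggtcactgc
TM7SF2, chr11:65111672-65111871, plus strand: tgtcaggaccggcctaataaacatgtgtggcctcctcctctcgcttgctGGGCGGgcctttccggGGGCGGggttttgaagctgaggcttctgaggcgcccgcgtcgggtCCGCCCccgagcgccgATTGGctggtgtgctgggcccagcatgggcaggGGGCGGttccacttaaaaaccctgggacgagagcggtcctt
HSD17B7, chr1:162790502-162790701, plus strand: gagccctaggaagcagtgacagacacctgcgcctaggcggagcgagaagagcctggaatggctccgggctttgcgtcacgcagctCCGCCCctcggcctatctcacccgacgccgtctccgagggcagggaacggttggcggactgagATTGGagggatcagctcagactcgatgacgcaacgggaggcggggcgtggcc
SREBF2, chr22:41832905-41833104, plus strand: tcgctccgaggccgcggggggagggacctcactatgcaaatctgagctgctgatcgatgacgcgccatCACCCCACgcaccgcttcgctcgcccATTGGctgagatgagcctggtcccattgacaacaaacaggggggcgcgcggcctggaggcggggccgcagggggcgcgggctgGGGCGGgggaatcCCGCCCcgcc

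In the full windows of 250 bases before to 50 after each start, 25 of the 31 genes matched a RefSeq entry, with 33 windows in all. CCAAT was found in 20 of the 33 (60.6%), from 18 genes, against 34.6% of all 35116 windows and 34.3% of the 14487 windows of genes tested here. GGGCGG was found in 27 (81.8%), from 21 genes, against 45.0% and 64.1%. CACCCCAC was found in 1 (3.03%), that of SREBF2, against 2.79% of all windows. The looser CACNCCAC, which includes it, was found in 5 (15.2%), from 4 genes, against 5.87%. Windows of the same gene can overlap, as for SC5DL, whose CACNCCAC match was counted in both. The matches are a description of these windows.

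Among the genes that control the pathway, SREBF1 fell and SREBF2 stayed near its control level. SREBF1, which encodes SREBP1, best known for driving fatty acid synthesis genes, lies on chromosome 17 from 17714663 to 17740325. It had 3879, 3695 and 3946 normalized reads in the controls and 2294, 2621 and 2735 in those labelled PELP1-KD. The groups were far apart at 66.4% of control, with a log2 fold change of −0.59 (SE 0.053, adjusted p = 1.21e-08). SREBF2, which encodes the factor best known for cholesterol genes, had 12190, 12167 and 12783 normalized reads against 12038, 12234 and 13107. Its groups overlapped, and the log2 fold change was 0.009 with a 95% interval of −0.067 to 0.085 (adjusted p = 0.845).

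The INSIG genes, whose proteins retain SCAP in the ER, moved apart. INSIG1 had 3473, 3473 and 3274 normalized reads in the controls and 3709, 3769 and 3621 in those labelled PELP1-KD, a log2 fold change of 0.12 (SE 0.040, adjusted p = 0.0175). The call was lost without control replicate 3 (adjusted p = 0.0791) or PELP1-KD replicate 2 (0.0857). INSIG2 had 705, 727 and 561 normalized reads against 549, 557 and 547, a log2 fold change of −0.27 (SE 0.082, adjusted p = 0.00898). Control replicate 3 lay close to the PELP1-KD values, and the call was lost without control replicate 1 (adjusted p = 0.0504) or control replicate 2 (0.0708). SCAP, the sterol sensor and escort, had 5989, 5987 and 6381 normalized reads against 6340, 6728 and 7205. These overlapped, with a log2 fold change of 0.14 (SE 0.044, adjusted p = 0.00953), lost without control replicate 2 (0.0512). The genes of the Golgi proteases that cut SREBPs did not pass the test. MBTPS1 had a log2 fold change of 0.066 (adjusted p = 0.148) and MBTPS2 one of −0.13 (adjusted p = 0.0785). With the replicate number as a block, MBTPS1 was called higher (adjusted p = 0.0372) and MBTPS2 lower (0.0312), the latter also without PELP1-KD replicate 1 (0.0087).

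The largest change of the set was in cholesterol esterification, where the paired genes moved in opposite directions. SOAT2, which encodes the acyltransferase known from hepatocytes and intestine, lies on chromosome 12 from 53497274 to 53518323. It had 1016, 988 and 1093 normalized reads in the controls and 2456, 2583 and 2693 in those labelled PELP1-KD. The lowest PELP1-KD library was above the highest control by more than the whole control level, and the change was 2.50-fold (log2 fold change 1.32, SE 0.051, 95% interval 1.21 to 1.43, adjusted p = 3.58e-14). SOAT1, the acyltransferase found in most tissues (chromosome 1, 179263017 to 179324453), had 2963, 3010 and 2745 normalized reads against 2365, 2205 and 2165. It fell to 77.3% of control without overlap (log2 fold change −0.37, SE 0.047, adjusted p = 1.52e-06). LCAT, which esterifies cholesterol in plasma lipoproteins, was the least abundant of the set, with a log2 fold change of −0.066 (95% interval −0.27 to 0.14, adjusted p = 0.592). Of its 1354 exon bases, 165 are shared with SLC12A4, so its reads are less certain.

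**Figure D2:**
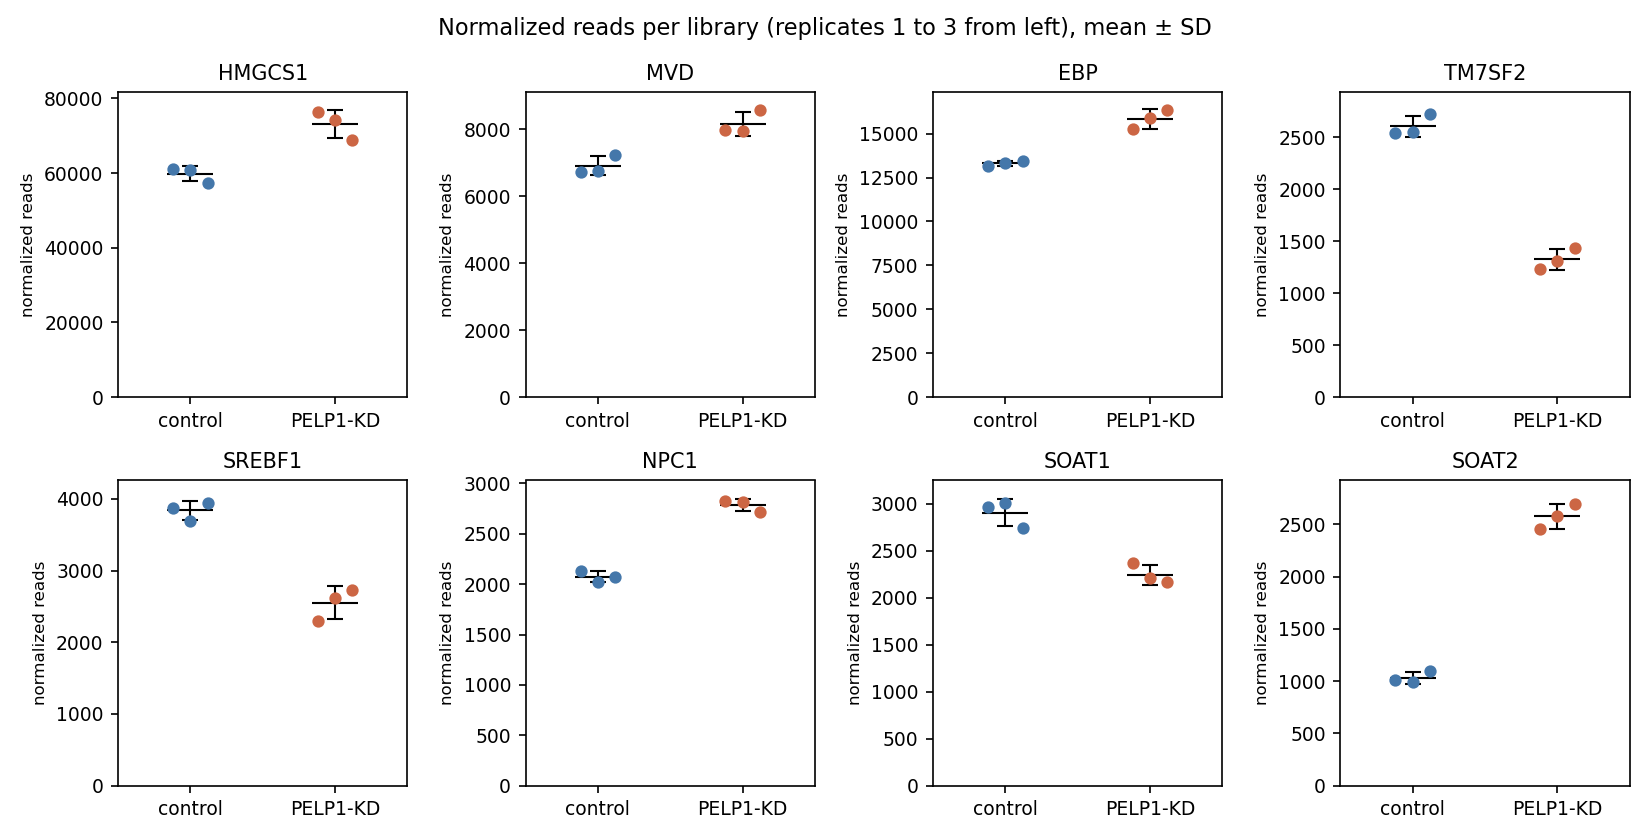
Normalized reads in each library for 8 of the genes, with control replicates 1 to 3 on the left and PELP1-KD replicates on the right of each panel, and the mean ± SD in black. No panel has overlapping groups, and SOAT2 runs from 988 to 1093 in the controls and from 2456 to 2693 in the libraries labelled PELP1-KD.

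Of the genes of the set for cholesterol entry and transfer between membranes, NPC1 rose most. Its protein moves cholesterol out of lysosomes, and the gene lies on chromosome 18 from 21111463 to 21166581. It had 2131, 2022 and 2068 normalized reads in the controls and 2824, 2816 and 2720 in those labelled PELP1-KD, a gap far wider than either group's spread. The log2 fold change was 0.43 (SE 0.042, adjusted p = 4.59e-08). NPC1L1, whose protein takes up free cholesterol at the cell surface (chromosome 7, 44552135 to 44580914), went the other way. It had 2256, 2287 and 2357 normalized reads against 1971, 2065 and 2124, apart by a smaller margin, with a log2 fold change of −0.16 (SE 0.044, adjusted p = 0.00372).

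STARD4, a carrier of sterol between membranes, had 1062, 1004 and 949 normalized reads in the controls and 1201, 1125 and 1060 in the others. The groups overlapped narrowly, and the log2 fold change was 0.17 (SE 0.059, adjusted p = 0.0219). The call was lost in DESeq2 (adjusted p = 0.0513), without control replicate 2 (0.0631) or 3 (0.102), and without PELP1-KD replicate 1 (0.113) or 2 (0.0562). SCARB1, the receptor that takes cholesteryl esters from HDL, had a log2 fold change of 0.077 (SE 0.037, adjusted p = 0.0873). It was called higher with the replicate number as a block (adjusted p = 0.00282), with library size as the only scaling (0.0284), without control replicate 3 (0.0269) and without PELP1-KD replicate 1 (0.0143).

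Summed over roles, per exon length, the total of the synthesis enzymes was higher in every library labelled PELP1-KD than in any control. The 8 mevalonate genes summed to 1217, 1208 and 1185 RPKM in the controls and 1401, 1381 and 1347 in those labelled PELP1-KD. The 9 genes from squalene onward summed to 938, 939 and 954 against 1003, 1027 and 1060. The 7 genes of transport, uptake and esterification summed to 223, 222 and 229 against 247, 255 and 261. In each of these sums every PELP1-KD library lay above every control (two-sided exact permutation test, p = 0.1 each, the smallest p that 3 against 3 allow). The 7 genes of control summed to 243, 243 and 249 against 237, 243 and 253, which overlapped (exact permutation p = 1). Each sum is weighted toward its abundant members, and a higher sum does not mean that every gene in it rose. The mevalonate sum is weighted toward HMGCS1, which averaged 542 RPKM in the controls and 663 in the libraries labelled PELP1-KD. In the squalene sum, EBP averaged 366 and 435, while 3 of the 9 genes fell. In the transport sum, SOAT2 averaged 15.8 and 39.6 and the more abundant SCARB1 133 and 140, while 2 of the 7 genes fell. Together the 31 genes held 0.673%, 0.671% and 0.667% of the reads on genes in the controls and 0.759%, 0.755% and 0.747% in the other group.

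**Figure D3:**
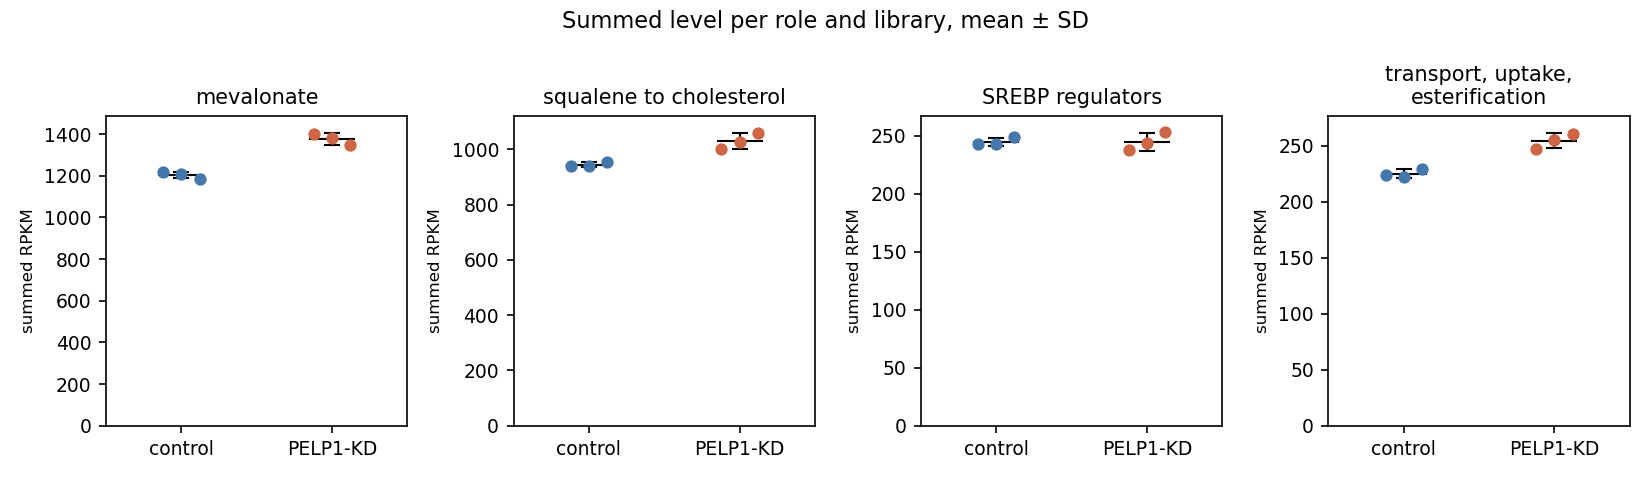
Summed RPKM of the genes of each role in each library (points, replicates 1 to 3 from left), with mean ± SD in black and axes from 0. The mevalonate sums run from 1185 to 1217 in the controls and from 1347 to 1401 in the libraries labelled PELP1-KD, while those of the control genes of the pathway overlap.

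The shares of the members were compared within gene pairs related by family or by role, which need not be interchangeable. SOAT2 made up 35.9%, 35.0% and 39.5% of the summed RPKM of both acyltransferase genes in the controls and 63.0%, 65.7% and 67.1% in those labelled PELP1-KD, so the more abundant member changed from SOAT1 to SOAT2. SREBF1 made up 21.5%, 20.7% and 21.0% of both SREBP genes in the controls and 14.1%, 15.6% and 15.2% in the other group. For the NPC1 family the share of NPC1L1 was 51.4% ± 1.01 in the controls and 41.3% ± 1.37 in the others (SD, n = 3 each). MBTPS1 held 82.9% ± 0.524 and 84.8% ± 1.07 of the protease pair, with the nearest libraries at 83.4% and 83.6%. INSIG1 was the larger part of its pair throughout, at 80.5%, 80.0% and 83.0% against 85.0%, 85.0% and 84.7%. None of these 5 shares overlapped between groups (exact permutation p = 0.1 each, again the smallest possible). Of all single genes tested, 58.8% had groups that did not overlap, and the same figure for other gene pairs is not given here. The shares restate the values of the single genes above, and neither MBTPS1 nor MBTPS2 passed the test alone.

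**Figure D4:**
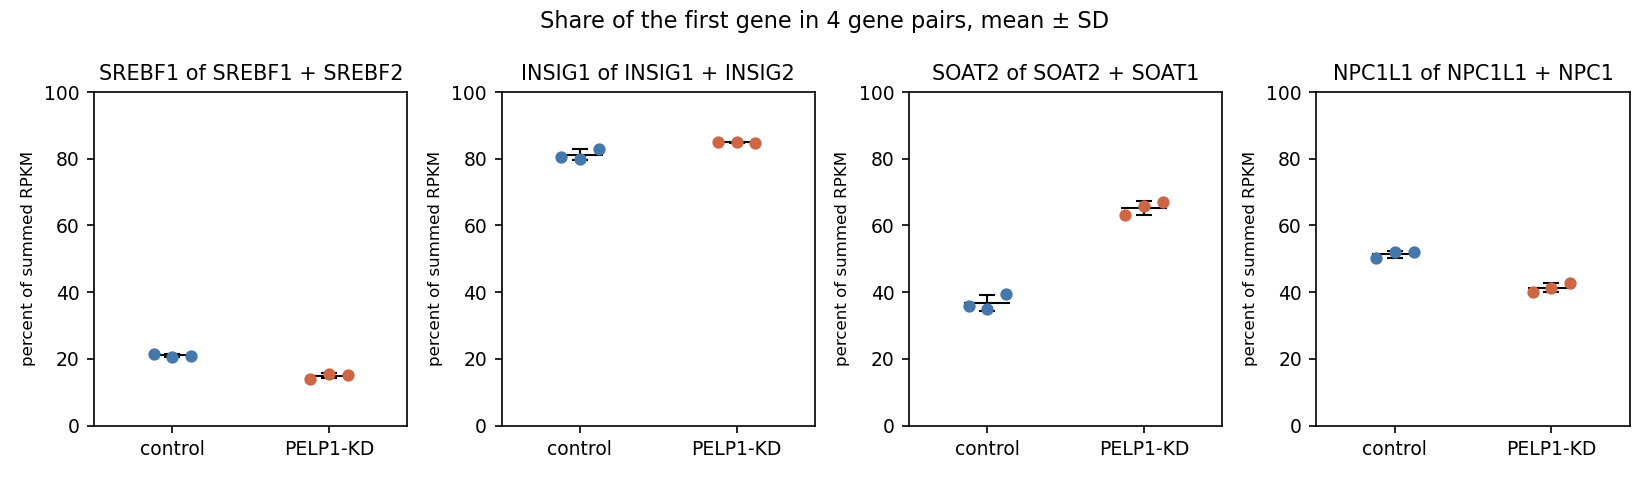
Share of the first-named gene in the summed RPKM of a pair, in percent, for each library (points, replicates 1 to 3 from left) with mean ± SD in black. The SOAT2 share lies between 35.0% and 39.5% in the controls and between 63.0% and 67.1% in the libraries labelled PELP1-KD.

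The third replicate of each group stood apart from the other two in the same way in both groups. Against the mean of replicates 1 and 2, replicate 3 was higher for 19 genes in both groups, lower for 11 in both, and mixed for HSD17B7 alone. Some of these deviations were very small, such as 0.008 and 0.013 on the log2 scale for ACAT2 and 0.013 and 0.023 for FDFT1. The same count over all genes is not given here, but over 6370 genes the deviations of the third replicates correlated at 0.666. On the log2 scale, SC5DL was at −0.19 in the controls and −0.16 in those labelled PELP1-KD, IDI1 at −0.18 and −0.15, and STARD4 at −0.12 and −0.13. MVK was at 0.12 and 0.15, and TM7SF2 at 0.096 and 0.17. INSIG2 was at −0.35 in the controls and −0.014 in the other group. Ratios of libraries with the same number were close to each other for some genes and not for others. For IDI1, whose groups overlapped, the log2 ratios of replicates 1, 2 and 3 were 0.18, 0.13 and 0.18. For SC5DL they were 0.20, 0.15 and 0.21, and for STARD4 0.18, 0.17 and 0.16. For SREBF1 they were −0.76, −0.50 and −0.53, for INSIG2 −0.36, −0.38 and −0.035, and for MBTPS2 0.046, −0.28 and −0.17. Over the set, all 3 ratios were above 0 for 18 genes and below 0 for 8, and 5 genes had mixed signs. These signs were not counted over all genes, so whether the set differs from other genes in this is not known. With the replicate number as a block, 18 genes (58.1%) were called higher and 8 (25.8%) lower, against 30.4% of all genes in each direction. What sets replicate 3 apart was not tested.

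**Figure D5:**
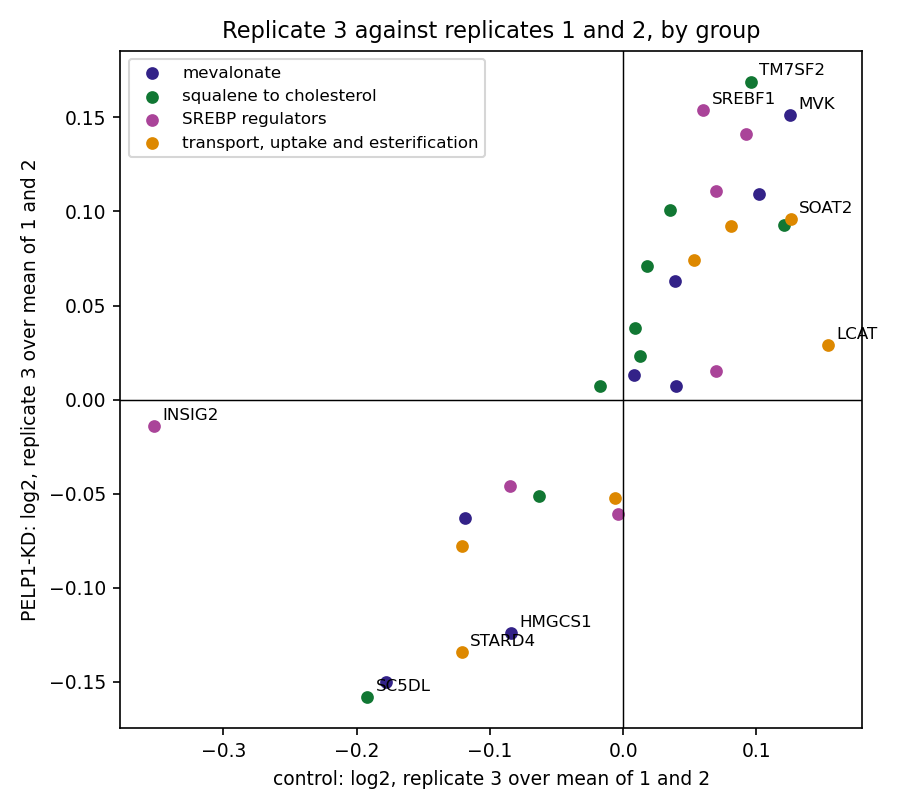
Log2 ratio of replicate 3 to the mean of replicates 1 and 2 for each of the 31 genes, with the controls on the horizontal axis and the libraries labelled PELP1-KD on the vertical axis, coloured by role. Points in the lower left and upper right deviate the same way in both groups, as 30 of the 31 do, some by very little. INSIG2 lies at −0.35 and −0.014.

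Other genes around the pathway were taken from lists made by function. Of 82 such genes, 73 were tested, and 21 rose (28.8%) and 25 fell (34.2%), with a median log2 fold change of −0.033. The count of each list that follows stands beside the same 26.8% of all genes in each direction, and the lists are short. Among 9 tested genes of the list for sterol-regulated protein breakdown in the ER, 5 fell and 1 rose. ERLIN1, an ER membrane scaffold, had a log2 fold change of −0.31 (SE 0.041, adjusted p = 3e-06), and the ubiquitin ligase gene SYVN1 −0.26 (SE 0.045, adjusted p = 7.81e-05). The rise on this list was that of C12orf49 (log2 fold change 0.36, SE 0.039, adjusted p = 2.2e-07). C12orf49 is a partner of the protease of MBTPS1 rather than a gene of this breakdown. Of 12 genes for non-sterol branches, such as dolichol, ubiquinone and protein prenylation, 1 rose and 2 fell. DHDDS (0.13, adjusted p = 0.0355) lost its call without control replicate 2 (0.152) or 3 (0.056), without PELP1-KD replicate 1 (0.0902) or 3 (0.0816), and in DESeq2 (0.0806). NUS1 (−0.16, adjusted p = 0.0253) lost it without control replicate 1 (0.158) or 2 (0.0543) or PELP1-KD replicate 3 (0.109), and with library size alone (0.0553). FNTB (−0.23, adjusted p = 0.00995), which shares 2510 of its 2819 exon bases with CHURC1-FNTB, lost it without PELP1-KD replicate 1 (0.0541).

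Of 11 tested genes of lysosomal and intracellular sterol transfer, 4 rose and 1 fell. NPC2, the soluble lysosomal partner of NPC1, rose from 3647 to 4850 normalized reads on average (log2 fold change 0.41, SE 0.036, adjusted p = 1.13e-08). GRAMD1A, an ER protein that takes cholesterol from the plasma membrane, rose by 0.51 (SE 0.046, adjusted p = 1.42e-08), and TMEM97, a regulator of NPC1, by 0.13 (SE 0.032, adjusted p = 0.0017). OSBPL1A fell by 0.24 on the log2 scale (adjusted p = 0.000282). Among 9 tested lipoprotein receptor and lipase genes, 6 rose and 1 fell. LRP1, an endocytic receptor for lipoprotein remnants, had a log2 fold change of 0.52 (SE 0.039, adjusted p = 9.08e-10), the phospholipid transfer protein PLTP 0.42 (adjusted p = 2.22e-08) and the lipase LIPG 0.62 (adjusted p = 3.21e-07). CD36 was rare, at 29.5 and 7.92 normalized reads, with a log2 fold change of −1.91 (SE 0.34, adjusted p = 0.000102).

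For sterol efflux and its receptors, 1 of 5 tested genes rose and 2 fell. ABCA1, which loads cholesterol onto apolipoproteins, had a log2 fold change of −0.42 (SE 0.050, adjusted p = 6.22e-07). ABCG8, a part of the sterol exporter into bile, had −0.56 (SE 0.14, adjusted p = 0.00244), and the LXR gene NR1H2 had 0.18 (adjusted p = 0.00309). Of 16 genes for bile acid and oxysterol synthesis, 11 were tested, and 3 rose and 6 fell. CYP7A1, the rate-limiting enzyme of the classical bile acid route, averaged 1.26 normalized reads in the controls and 0 in the others and was not tested. NR0B2, a repressor of bile acid synthesis also called SHP, fell from 400 to 84.9 normalized reads on average (log2 fold change −2.23, SE 0.11, adjusted p = 1.1e-12). CYP7B1 had −1.65 (SE 0.28, adjusted p = 4.29e-05) at 46.9 and 14.7 normalized reads, and the bile acid receptor gene NR1H4 −0.17 (adjusted p = 0.00201). ACOX2 (0.76, adjusted p = 8.22e-07) and AKR1D1 (0.47, adjusted p = 5.3e-07) rose. HSD3B7 (0.15, adjusted p = 0.022) lost its call in DESeq2 (0.055), without control replicate 1 (0.0824) or 2 (0.102) and without PELP1-KD replicate 2 (0.0548) or 3 (0.0738).

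Fatty acid genes known as targets of SREBP1 were divided, with 4 higher and 6 lower among 11 and a median log2 fold change of −0.14. ACSL3, an acyl-CoA synthetase of lipid droplets, fell most, at −0.69 (SE 0.043, adjusted p = 5.05e-11). The desaturase genes FADS1 and FADS2 had −0.21 (adjusted p = 1.08e-05) and −0.17 (adjusted p = 0.000174). LPIN1 (0.26, adjusted p = 0.000775), PNPLA3 (0.22, adjusted p = 0.000603) and ME1 (0.20, adjusted p = 0.00154) rose. Of the 5 electron carrier and scaffold genes, LBR fell as described. CYB5R3, the reductase of cytochrome b5, fell by 0.12 on the log2 scale (adjusted p = 0.0142), a call lost without control replicate 3 (0.059) and without PELP1-KD replicate 1 (0.0625) or 2 (0.074). C14orf1, the older symbol of the sterol scaffold gene ERG28, rose by 0.14 (adjusted p = 0.00759).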

How the data were processed

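RNA of 3 control and 3 PELP1-KD Hep3B libraries was sequenced. The methods of the paper name TopHat2 and HTSeq, and the labels name HISAT2 and featureCounts. Per the file headers, featureCounts 1.5.0-p1 was run on hg19 with strand and a minimum mapping quality of 2, and reads matching several places or genes were divided. The labels also disagree on mRNA selection or removal of ribosomal RNA, and on single or paired reads. The deposited values are estimated counts per gene without normalization, rounded here to whole numbers.

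Groups follow the treatment labels. edgeR 4.0.16 (R 4.3.3) was run on the whole table with filterByExpr, TMM, robust glmQLFit and glmQLFTest. Benjamini-Hochberg adjustment was over all tested genes, at 0.05. Standard errors were derived from the F statistic, and intervals are 95%. Alternatives were DESeq2 size factors, upper-quartile or library-size scaling, DESeq2 1.42.0, other count filters, an adjusted p below 0.01, a replicate block and leaving out each library. The methods were run on simulated data with planted changes larger than most of those called in the set. The simulation held no effect shared by replicates, so neither small calls nor the replicate block were tested under the conditions of these data.

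Same-numbered libraries deviated together, with correlations over 6370 genes of 0.336, 0.247 and 0.666. Control replicate 2 with PELP1-KD replicate 1 gave 0.418, so replicates 1 and 2 are not told apart, and the pairing comes from the label numbers. No pair of replicates was a duplicate (chi-square over its degrees of freedom, 1.94 to 7.02).

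The 31 genes and all lists were chosen with earlier results of these data known. All 31 were named, and of each other list the 3 smallest p in each direction, except where an item is not reported here. Protein sequences were not used here. The alternatives were extended to the other lists after seeing the data.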

Additional observations from a re-analysis of the deposited data

How the results depend on the processing

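Each of 13 other fits and a stricter threshold were tried. Of the values of single members of the set, 354 kept direction and call, 29 lost the call, 12 gained it and 8 changed sign, all 8 for genes that were not called. Without PELP1-KD replicate 2, 8 genes of the set were called higher (25.8%) and 6 lower, against 23.0% and 23.3% of all genes. Over the fits without 1 library, between 8 and 14 genes were higher (25.8% to 45.2%) and between 5 and 8 lower (16.1% to 25.8%). Of all genes, 23.0% to 26.9% were higher and 23.0% to 27.2% lower in these fits. The number changed at least 2-fold was between 1 and 2, the second being TM7SF2 without PELP1-KD replicate 3. Signs changed only in such fits. FDPS ranged from −0.008 to 0.030, GGPS1 from −0.003 to 0.070, SREBF2 from −0.028 to 0.037 and LCAT from −0.141 to 0.019. With the replicate block, 18 genes were called higher and 8 lower, against 30.4% of all genes each way, including all 21 of the calls without it, and the 5 gained were ACAT2, PMVK, SCARB1 and MBTPS1 (higher) and MBTPS2 (lower). Library size as the only scaling gave 17 higher and 6 lower (28.8% and 24.6% of all genes). DESeq2 gave 12 (38.7%) and 7 (22.6%), against 20.2% and 21.5% of all genes in that fit. An adjusted p below 0.01 gave 10 and 6, against 2983 and 3055 of all 14537 genes tested. LCAT had the largest SE of the set, 0.098. The causes of these changes were not tested.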
